A study of Mus musculus with 2 samples.

Results

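The receptors for interleukin-18 (IL-18), interleukin-33 (IL-33) and interleukin-1 (IL-1) were followed through the immune cells of the mouse liver by 6 genes, Il18r1, Il18rap, Il1rl1, Il1r1, Il1r2 and Il1rap. These genes were taken by name from the 13528 genes of the filtered single-cell count table, and all 6 had counts in both genotypes. The cells were CD45+ liver cells of mice on the C57BL/6 background, labelled as 10 weeks old although the study's methods state a younger age. The dnTGFβRII mice (TG) carry a dominant negative human TGF-β receptor II under the mouse CD4 promoter, so the transgene acts in CD4 and CD8 T cells and not in every cell of the liver. They develop an autoimmune bile duct disease that resembles primary biliary cholangitis. The wild-type mice (WT) carry no transgene. TG cells were captured in a pool with cells of IFN-γ ARE-Del-/- mice, WT cells in another pool with cells of P40-/-IL-2Ra-/- mice, and sample tags told the genotypes of a pool apart. The number of mice behind each genotype is not given in the sources used here. Each genotype is thus a single library, its effect cannot be told apart from that of the capture pool, and no test between genotypes was possible.

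IL-18 binds the α chain of its receptor, encoded by Il18r1, and signals once the β chain, encoded by Il18rap, has joined. IL-33 binds ST2, the product of Il1rl1, IL-1 binds the product of Il1r1, and both complexes use the shared accessory chain made from Il1rap. The product of Il1r2 binds IL-1 but lacks the signalling domain and is known as a decoy. The signalling complexes share the adaptor MyD88 and the IRAK kinases and lead to NF-κB. As background, the IL-18 receptor is known from natural killer (NK) cells, type 1 T cells and innate-like T cells, ST2 from basophils, type 2 lymphocytes and a subset of regulatory T (Treg) cells, and the IL-1 receptor from γδ T cells that make IL-17.

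All of the members except Il1rap lie in 1 locus in mouse genome build GRCm38 and are read from the plus strand of chromosome 1. The locus of these 5 genes spans 477.6 kb and holds 5 other annotated genes, among them the IL-36 receptor gene Il1rl2. In genomic order Il1r2 lies at chr1:40074079-40125231, Il1r1 at chr1:40225080-40317257, Il1rl1 at chr1:40429570-40465415, Il18r1 at chr1:40465552-40500854 and Il18rap at chr1:40515362-40551705. Il1rl1 ends only 0.136 kb before Il18r1 begins, and Il18r1 is followed by Il18rap after 14.507 kb. Il1rap lies at chr16:26581704-26730117. The 250 bases upstream of Il1rl1 and of Il18rap, taken from RefSeq on the same build and 5′ to 3′ on the plus strand, are shown because these genes differed most between genotypes in CD4 T cells and CD8αβ T cells. Both windows hold no annotated exon. Capitals mark exact matches to short motifs that were searched on both strands and do not overlap each other. The motif of the GATA family was taken as AGATAA. That of the T-box family was AGGTGT. The RUNX family was searched as TGTGGT and the ETS family as AGGAAG.
Il1rl1 upstream, chr1:40429320-40429569: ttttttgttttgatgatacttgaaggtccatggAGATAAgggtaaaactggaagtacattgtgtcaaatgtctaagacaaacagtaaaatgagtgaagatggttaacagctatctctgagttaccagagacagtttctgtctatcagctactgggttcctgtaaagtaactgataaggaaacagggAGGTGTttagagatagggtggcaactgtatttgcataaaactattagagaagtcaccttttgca
Il18rap upstream, chr1:40515112-40515361: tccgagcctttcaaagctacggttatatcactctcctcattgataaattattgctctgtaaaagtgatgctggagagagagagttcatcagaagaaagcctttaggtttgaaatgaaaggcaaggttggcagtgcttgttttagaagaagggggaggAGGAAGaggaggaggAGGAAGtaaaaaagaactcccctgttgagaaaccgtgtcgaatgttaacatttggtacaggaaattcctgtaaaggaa
The Il1rl1 window held an AGATAA match that began 217 bases before the gene start and an AGGTGT match 64 bases before it. Il1rl1 has a second annotated start, whose window (chr1:40439379-40439628) is not shown. It held a GATA match at 103 and a RUNX match at 6 bases before that start. The Il18rap window held the ETS letters at 93 and at 78 bases before the start. Among 32851 such windows of mouse genes, 9.99% held AGATAA, 11.8% AGGTGT, 14.0% TGTGGT and 29.5% AGGAAG, so these matches are common and describe the letters only.

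The table held 4647 TG cells with 18498477 unique molecular identifiers (UMIs, counted RNA molecules) and 7282 WT cells with 22216379 UMIs. The median cell had 3298 UMIs in TG and 2653.5 in WT. The authors' cell type names were used. The names fitted their defining markers for basophils, whose Mcpt8 stood at 3643 counts per 1000000 UMIs (CPM) in TG and 2912 in WT, and for γδ T cells, whose Trdc stood at 1720 and 1393 CPM. The cluster named Mono held more RNA of the neutrophil list than of the monocyte list. The 4 neutrophil genes, S100a8 (21386 CPM in TG and 10788 in WT) and Csf3r (2862 and 2960) among them, summed to 62244 and 42308 CPM. The 4 monocyte genes summed to 2553 and 1971 CPM, against 1483 and 1427 over all cells. Of these, Lyz2 was at 1871 and 1420 CPM and Ccr2 at 21.7 and 40.2. It is called cluster 5 here. The cells named NK held 4071 CPM of the T cell list in TG and 1617 in WT. NK is thus used below as the authors' name only. The 6 measured macrophage genes, C1qa among them, had no UMI in any of the 4647 TG cells, and summed to 74.4 CPM over all WT cells and to 1147 in the WT cells named Macro. The 3 measured hepatocyte genes also had no UMI in TG, and summed to 2.25 CPM over all WT cells. Why these genes were at 0 in every TG cell was not tested. Cells with UMIs of 2 lineages made up 36.5% of TG cells and 11.7% of WT cells. Of the named cells, 112 TG and 78 WT cells had a number that the other library also used.

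Levels are CPM of all UMIs summed over the cells of a type, with exact 95% Poisson intervals in parentheses. These intervals, and all others here, cover counting error only. Pooled profiles cannot separate more positive cells from more RNA per cell, so the share of cells with a UMI is given where it matters. The share in mature B cells, which should lack these receptors, served as the background. There, Il18r1 was found in 2.15% of TG and 2.28% of WT cells, Il18rap in 2.62% and 1.94%, and Il1rl1 in 0.375% and 0.335%, at median depths of 2923 and 2044 UMIs. These shares include cluster 17 of mature B cells, which also held T cell RNA (values below). Its 155 of 1494 WT cells held 34 of the 44 WT UMIs of Il18r1, 17 of 31 of Il18rap and 13 of 14 of Il1rl1. In TG its 29 cells held 3 of the 23 Il18r1 UMIs. The WT background is thus likely too high for mature B cells without T cell RNA.

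**Figure D1:**
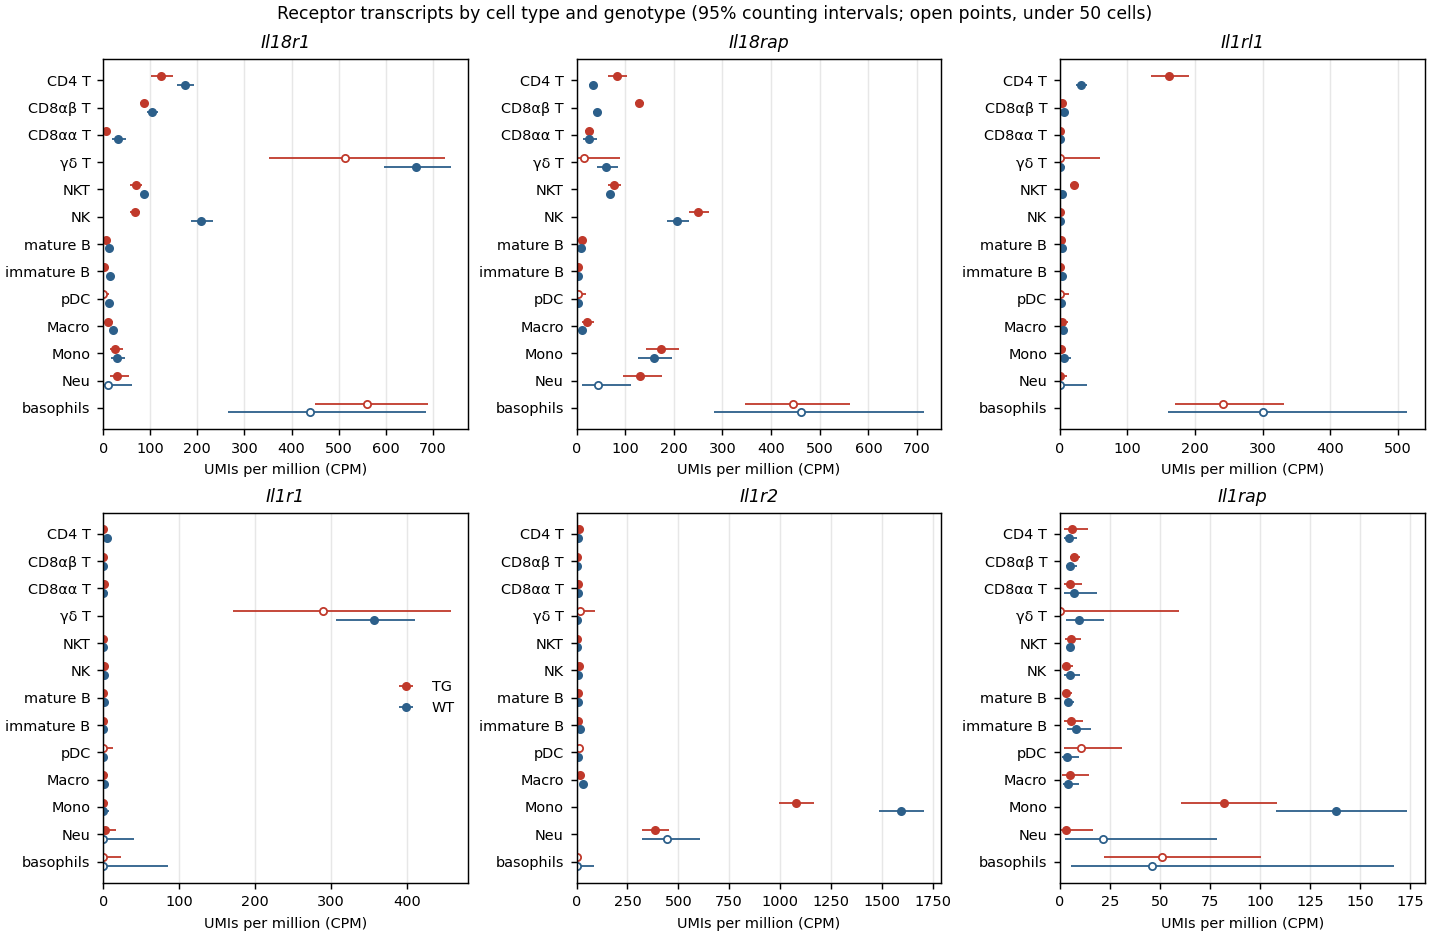
CPM of the 6 receptor genes (linear axis, 1 panel a gene) in each cell type, with TG in red, WT in blue, exact 95% Poisson intervals that cover counting error, and open points for types under 50 cells. Il1r1 stands out in γδ T cells only, Il1r2 in cluster 5 (named Mono) and Neu, and Il18r1 is highest in γδ T cells and basophils.

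Il18r1 was highest in γδ T cells and basophils in both genotypes. In γδ T cells it stood at 514 CPM (352–726) in the 17 TG cells and 665 (597–738) in the 192 WT cells. UMIs were found in 82.4% and 78.1% of these cells. In basophils the level was 560 CPM (449–689) in 45 TG cells and 439 (264–686) in 16 WT cells. The intervals of both types overlapped within each genotype and between genotypes. Below them came CD4 T cells with 123 CPM (101–149) in TG and 174 (156–194) in WT. CD8αβ T cells followed with 85.8 (78.1–94.1) and 104 (92.7–116), and NKT cells with 69.1 (57.4–82.5) and 87.1 (80.1–94.5). NK cells held 67.0 CPM (56.8–78.5) in TG, which overlapped NKT cells, and 209 (187–232) in WT, which overlapped CD4 T cells and lay above the intervals of CD8αβ and NKT cells. Mature B cells were at 6.85 and 12.2 CPM, and none of 46 TG plasmacytoid dendritic cells had a UMI. Taken as at most 3 counts, as for other levels of 0 below, this allows up to 10.7 CPM. The upper end of the exact interval is 13.1 CPM.

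Il18rap, the signalling partner, was spread over more myeloid cells. Basophils held 445 CPM (347–562) in TG and 462 (282–714) in WT. Cluster 5 held 174 (142–211) and 159 (126–197), and the cells named Neu 131 (94.96–175) in 54 TG cells and 43.5 (11.9–111) in 17 WT cells, the latter from only 4 UMIs. Il18r1 in cluster 5 was at 25.1 and 28.7 CPM, from 15 UMIs in each genotype. The cells named NK were the highest lymphocytes for Il18rap, at 251 CPM (230–272) in TG and 207 (185–230) in WT. The γδ T cells, which led for Il18r1, had 1 UMI of Il18rap in TG and 60.2 CPM (41.2–85.0) in WT. In WT γδ T cells with an Il18r1 UMI, 19 of 150 (12.7%) also had one of Il18rap, against 14.3% of those without.

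Across the 9 cell types with at least 50 cells of each genotype, 31 of 54 pairs of a receptor gene and a cell type had at least 20 UMIs in all, and 9 of these (29.0%) differed by 2-fold or more between TG and WT. Among all genes in the same types, 7.53% of 77420 pairs did so. Of the 9 receptor pairs, 5 were higher in TG and 4 lower, and over all genes 4.06% were higher and 3.46% lower. The receptor genes were chosen with earlier results of these data known, and this share is a description. The chains of the IL-18 receptor were counted separately. The interval of the ratio lay below 0 for Il18r1 in 6 of 8 types and above 0 in none, whereas for Il18rap it lay above 0 in 3 of 8 and below 0 in none. The 6 types include mature B cells, the background type. The share of all genes with an interval off 0 was not counted, so these counts have no base rate. The median log2 ratio over all tested receptor pairs was 0.05. The count of 9 depends on depth and on clusters. After thinning of each cell to 1000 UMIs it was 5 of 14 pairs tested, where 8.59% of all genes were past 2-fold, and in the largest cluster of each type alone 5 of 23, where 7.99% were.

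**Figure D2:**
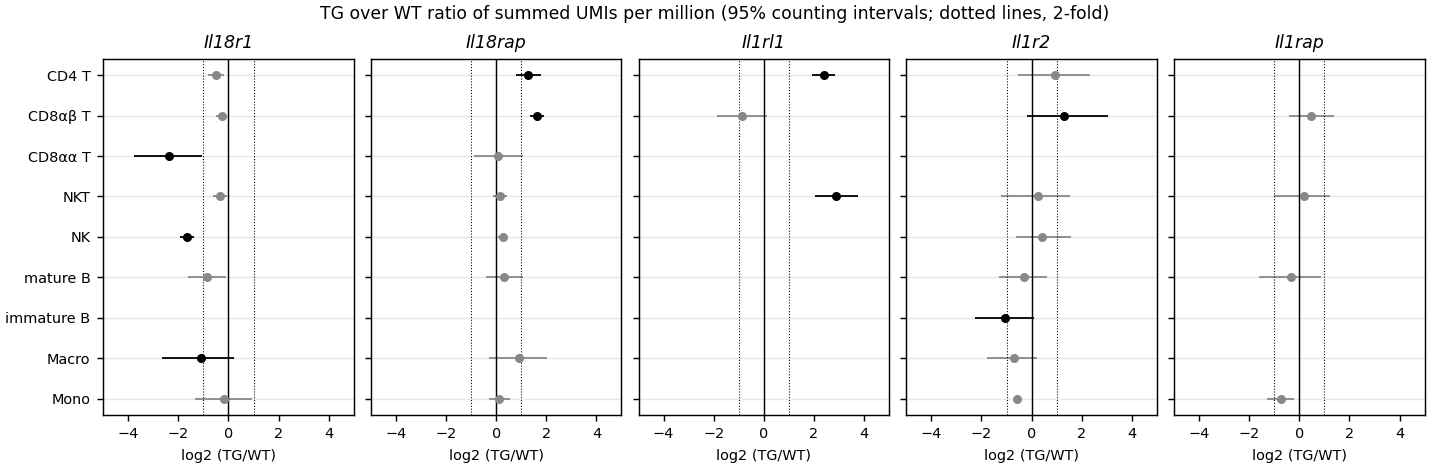
Log2 ratio of TG over WT for each receptor gene and cell type with at least 20 UMIs and 50 cells of each genotype; lines are exact 95% binomial intervals that cover counting error, and black points are differences of 2-fold or more. Il1rl1 lies above a 2-fold difference in CD4 T and NKT cells and Il18rap in CD8αβ and CD4 T cells, while Il18r1 lies below it in NK cells, CD8αα T cells and Macro, and the intervals of the Il18r1 point in Macro and of the Il1r2 points past 2-fold cross 0.

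The widest gap for the β chain was in CD8αβ T cells. Il18rap was at 129 CPM (120–139) in 1020 TG cells and at 41.4 (34.5–49.3) in 819 WT cells. UMIs were found in 36.3% of TG and 11.7% of WT cells. The log2 ratio was 1.64 (1.37 to 1.93), in a type where 7.2% of all tested genes differed by 2-fold. Cluster shares moved with this gap. Cluster 4, the lowest for Il18rap in WT, held 145 of the 1020 TG but 363 of the 819 WT cells, while cluster 7 held 319 and 132 and cluster 12 held 249 and 73. Within the 4 clusters tested the log2 ratio of Il18rap ran from 0.39 to 2.69. The part of the cluster shares in the gap over the type was not tested. Il18r1 in the same cells differed little, with a log2 ratio of −0.27 (−0.48 to −0.06). In CD4 T cells Il18rap was at 82.9 CPM (64.6–105) in TG and 33.9 (26.2–43.1) in WT, a log2 ratio of 1.29 (0.78 to 1.80), where 8.69% of genes differed by 2-fold. Il18r1 went the other way there, at −0.50 (−0.83 to −0.18). In NKT cells the log2 ratios were smaller, at 0.16 for Il18rap and −0.33 (−0.63 to −0.05) for Il18r1. Il18rap in cluster 5 had a ratio of 0.13.

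The clusters within CD8αβ T cells did not share 1 pattern for the α chain. In cluster 12 (249 TG and 73 WT cells) Il18rap stood at 378 CPM (335–426) in TG and 95.6 (59.2–146) in WT, and 58.2% and 19.2% of cells had a UMI. Its log2 ratio was 1.98 (1.34 to 2.70), in a cluster where 12.6% of all tested genes differed by 2-fold, and Il18r1 in these cells was lower in TG at −1.27 (−1.89 to −0.64). NK markers also moved in this cluster. Of the 3 genes of the NK list, Klrb1c (log2 ratio 3.04, 150 CPM in TG and 18.2 in WT) and Ncr1 (34.0 CPM in TG and no UMI in WT) were higher in TG by 2-fold or more, and Eomes was at −0.78. The list summed to 285 CPM in TG and 191 in WT. In cluster 7, too, Il18r1 was lower and Il18rap higher in TG. There Il18r1 was at 36.4 CPM in TG and 133 in WT (−1.87, −2.28 to −1.47, against 8.07% of genes past 2-fold), and Il18rap at 117 and 61.8 (0.92, 0.50 to 1.35). In clusters 4 and 13, by contrast, Il18r1 was higher in TG. Cluster 4 held 90.0 CPM of Il18r1 in TG and 55.3 in WT (0.70, 0.17 to 1.24), and 42.9 and 6.67 CPM of Il18rap (2.69, 1.47 to 4.11), the latter from 7 WT UMIs and against 8.4% of genes past 2-fold. Both NK genes tested in cluster 4 were higher in TG, Klrb1c at 1.76 and Eomes at 1.62, and the NK list summed to 157 CPM in TG and 51.5 in WT. Other markers moved there as well. In TG, 3 of 4 monocyte genes, 2 of 3 neutrophil genes, 2 of 3 B cell genes and Cd4 (1.44) were 2-fold higher. Of the γδ T cell marker genes, 1 of 3 was 2-fold lower, and 0 of 5 genes of the T cell list were past 2-fold. In cluster 7, 1 of 3 NK genes was 2-fold higher, and the list summed to 484 and 259 CPM. Of 4 monocyte genes there, 2 were higher and 1 lower, 2 of 3 neutrophil genes were higher, and 1 of 4 B cell genes was lower. The part of the NK and other markers in the receptor differences of these clusters was not tested. Cluster 13 held Il18r1 at 237 and 165 CPM (0.52, 0.15 to 0.91), and Il18rap at 78.4 and 60.0 CPM. There 2 of 3 γδ T cell marker genes were 2-fold lower in TG, and 2 of 3 monocyte genes tested and Cd4 (2.17) were higher. Of the 2 NK genes tested, 0 reached 2-fold. The part of these markers was not tested either. With cluster 12 left out, the Il18rap ratio over CD8αβ T cells was 1.26.

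Across the 14 clusters with enough cells, 35 of 84 pairs were tested and 11 (31.4%) differed by 2-fold or more, 5 higher and 6 lower in TG. Among all genes in these clusters the share was 8.26%, with 4.41% higher and 3.85% lower. Il18r1 had an interval below 0 in 7 of 13 clusters and above 0 in 2. The share of all genes with such an interval was not counted.

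**Figure D3:**
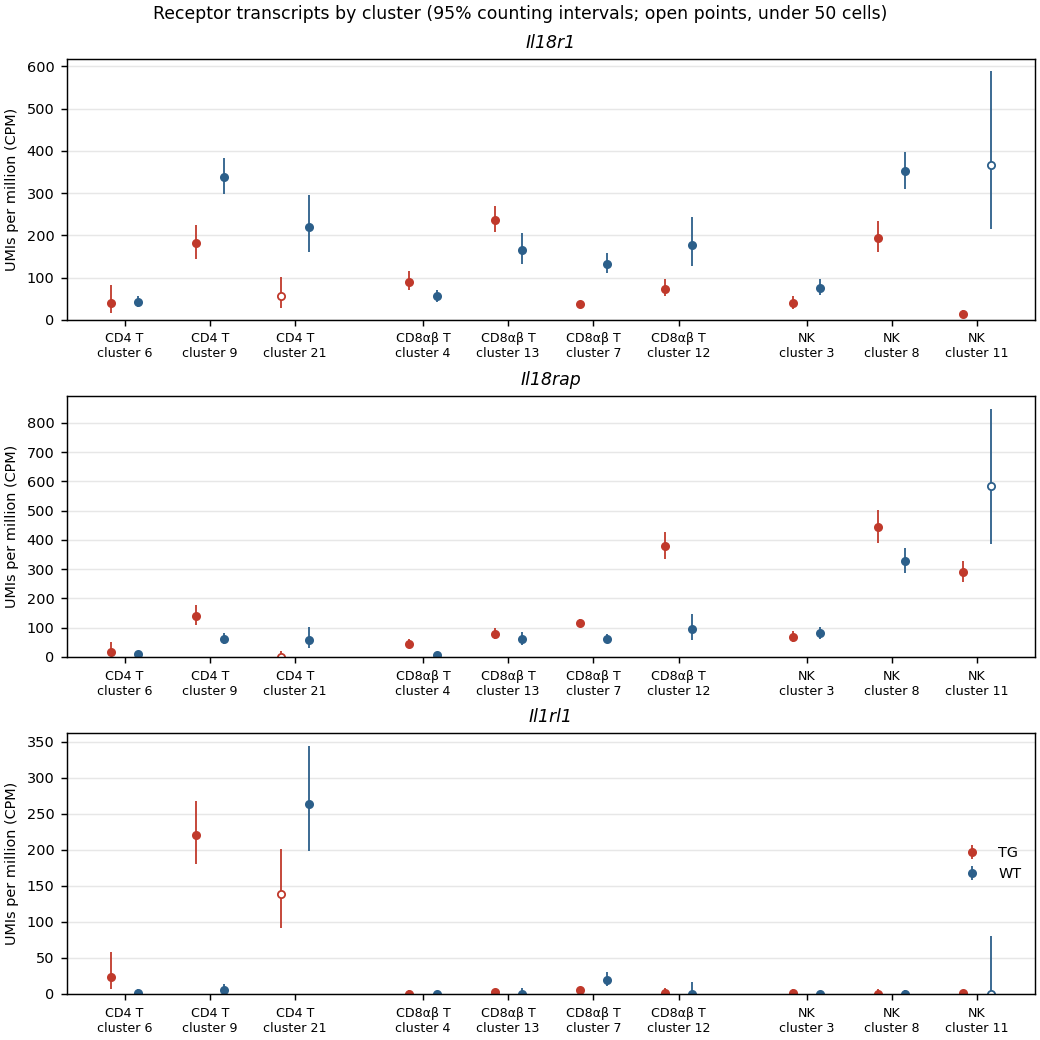
CPM of Il18r1, Il18rap and Il1rl1 (linear axis) in the CD4 T, CD8αβ T and NK cell clusters, with TG in red, WT in blue, exact 95% Poisson intervals that cover counting error, and open points for under 50 cells. Il18rap is higher in TG in clusters 4, 7, 8, 9 and 12, and Il1rl1 is split between cluster 9 in TG and cluster 21 in WT.

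The α chain also differed in the cells named NK, most of which carried RNA of the T cell gene Cd3e in TG. Il18r1 was at 67.0 CPM in 759 TG cells and 209 in 615 WT cells, with UMIs in 14.0% and 31.2% of cells. The log2 ratio was −1.64 (−1.92 to −1.36), where 8.23% of all tested genes differed by 2-fold. Il18rap in the same cells was slightly higher in TG, at 0.28 (0.08 to 0.48). T cell markers moved with this difference. Cd3e, a chain of the T cell receptor complex, was at 1158 CPM in TG and 97.8 in WT cells named NK, and 602 of the 759 TG cells but 72 of the 615 WT cells had a UMI of it. The whole T cell list (5 of 5 genes measured, none at 0) summed to 4071 CPM in TG and 1617 in WT. The NK list (3 of 3 genes) summed to 1796 and 2726 CPM.

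Split by Cd3e, the α chain was low in 1 of the 4 groups of NK-named cells. Il18r1 was at 24.6 CPM (17.8–33.1) in TG cells with a Cd3e UMI and at 206 (169–248) in the 157 TG cells without one. In WT it was at 175 (127–235) with Cd3e and 215 (191–241) without. Over the cells without Cd3e the log2 ratio of Il18r1 was −0.06, against −1.64 over all cells named NK. Within single NK clusters, with and without Cd3e together, it stayed below 0. It was −0.85 (−1.19 to −0.52) in cluster 8 and −0.94 (−1.61 to −0.30) in cluster 3. The part of the cluster shares in the value of −0.06 was not tested. A cell without a Cd3e UMI may still express the gene at this depth. For Il18rap the split gave 200 CPM (180–222) with Cd3e and 416 (363–474) without in TG, and 159 (113–217) and 216 (191–242) in WT. The log2 ratio of Il18rap without Cd3e cells was 0.95. Ncr1, an activating receptor of NK cells, was also lower in TG cells with Cd3e (450 CPM) than without (923), and in WT (630 and 1030). Eomes, a transcription factor of NK cells, was at 68.6 and 369 CPM in TG and at 285 and 342 in WT.

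**Figure D4:**
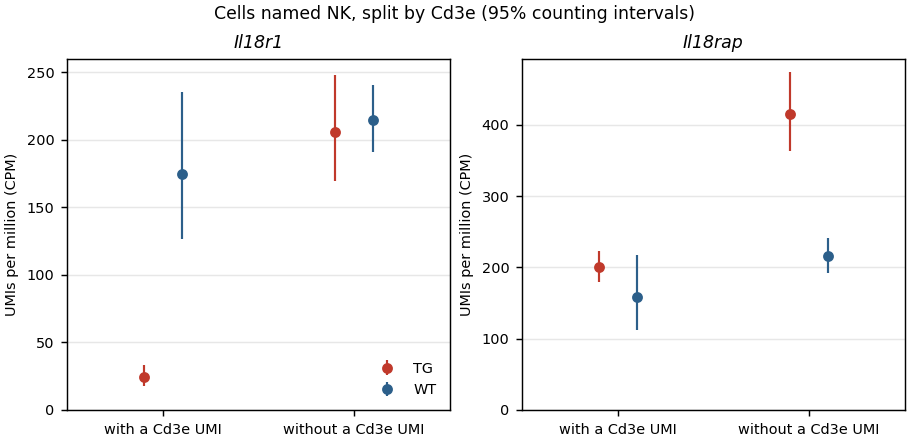
CPM of Il18r1 and Il18rap in cells named NK, split by genotype (TG red, WT blue) and by the presence of a Cd3e UMI, with exact 95% Poisson intervals that cover counting error. Il18r1 is near 200 CPM in 3 of the groups and at 24.6 in the 602 TG cells with Cd3e.

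Il18r1 was also described in each NK cluster. Cluster 11 was mostly of TG cells (343 against 22 in WT), and there Il18r1 was at 12.9 CPM (6.68–22.6) in TG and 367 (214–588) in WT, while Il18rap was at 290 and 583 CPM. Too few WT cells fell in it for a ratio. Cluster 8 (153 and 287 cells) held 195 and 351 CPM of Il18r1, a log2 ratio of −0.85 (−1.19 to −0.52), and 442 and 328 CPM of Il18rap (0.43, 0.17 to 0.69). In this cluster 0 of 5 genes of the T cell list were past 2-fold (summed to 819 CPM in TG and 666 in WT). The T cell coreceptor genes Cd4 (log2 ratio 3.15, 122 CPM in TG and 13.8 in WT) and Cd8a (1.06) were higher in TG, and Cd8b1 was at −0.43. Cluster 3 held 39.3 and 75.6 CPM of Il18r1 (−0.94, −1.61 to −0.30), and its Il18rap ratio was −0.26. In this cluster 3 of 5 genes of the T cell list were 2-fold higher in TG (summed to 5572 CPM in TG and 2467 in WT), among them Cd3e (1608 and 122 CPM). Cd4 was at 546 and 20.4 CPM (4.74), Cd8a at 108 and 46.8, and Cd8b1 at 7.60 and 48.0 (−2.66). The part of these markers in the Il18r1 differences of both clusters was not tested. The Il18r1 level was lower in TG in each of the 3 NK clusters.

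The chains of the IL-18 receptor were often found in the same cell among those named NK. In TG, 67.9% of Il18r1-positive cells named NK also had an Il18rap UMI, against 39.5% of those without Il18r1, and in WT 49.5% against 29.8%. Within cluster 8 alone these shares were close to each other, at 78.5% (67.8–86.9) against 74.3% in TG and 53.1% (44.6–61.5) against 53.5% in WT. In cluster 12 of CD8αβ T cells the shares were 64.5% against 57.3% in TG and 14.3% against 21.2% in WT. Of the 35 TG basophils with Il18r1, 26 had Il18rap, as did 4 of the 10 without Il18r1. In WT basophils the order was the opposite, with 7 of 10 and 5 of 6. With each cell thinned to 1000 UMIs, the cluster 8 shares were 40.6% against 31.4% in TG and 38.8% against 25.1% in WT. These rest on 13 of 32 and 38 of 121 cells in TG and on 31 of 80 and 52 of 207 cells in WT, and the difference was not tested.

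In CD8αα T cells Il18r1 was low in both genotypes, at 6.04 CPM (2.61–11.9) from 8 UMIs in 410 TG cells and 30.9 (18.0–49.5) from 17 UMIs in 194 WT cells. The log2 ratio was −2.36 (−3.78 to −1.07), against 7.83% of genes past 2-fold. A γδ T cell gene moved with it. Trdc was found in 20 of the TG cells and 82 of the WT cells, and 12 of the 17 WT Il18r1 UMIs lay in cells with Trdc. Without the cells that had Trdc the ratio was −1.31, from 8 UMIs against 5. The cells named Macro had Il18r1 at 9.80 CPM in TG and 20.7 in WT, a ratio of −1.08 whose interval reached from −2.64 to 0.21, where 9.59% of genes were past 2-fold. In its cluster 15 the levels were 11.3 and 30.9 CPM (−1.45, against 8.73% of genes). Other markers moved in the cells named Macro. Both NK genes tested were higher in TG (the list summed to 191 CPM in TG and 37.2 in WT), as were 2 of 3 genes of the NKT list (323 and 114) and 1 of 5 of the T cell list (711 and 463). The 6 macrophage genes were at 0 in these as in all TG cells, so that absence is not particular to the cells named Macro. The part of the markers in the ratio was not tested. In mature B cells, the background type, the Il18r1 ratio was −0.84 (−1.63 to −0.08), and 4.75% of genes were past 2-fold. It rested on cluster 17, whose 155 WT cells held 34 of the 44 WT UMIs. In the main cluster 1 the ratio was 0.85 (−0.31 to 2.11). T cell markers moved with the value over mature B cells. There 4 of 5 genes of the T cell list were 2-fold lower in TG (summed to 441 CPM in TG and 1009.5 in WT), as were 2 of 3 of the NK list (35.4 and 87.1). In cluster 17 the T cell list summed to 3234 and 4009 CPM, and in cluster 1 to 282 and 246. The part of these markers was not tested.

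Il1rl1, the gene of the IL-33 receptor ST2, was highest in basophils and, in TG, in CD4 T cells. Basophils held 242 CPM (171–332) in TG and 300 (160–514) in WT, with UMIs in 20 of 45 and 7 of 16 cells. The basophil groups overlapped widely. CD4 T cells held 161 CPM (135–190) in TG and 30.8 (23.5–39.7) in WT, from 43 of 238 cells (18.1%) and 29 of 734 cells (3.95%). The log2 ratio was 2.38 (1.94 to 2.85), in a type where 8.69% of all tested genes differed by 2-fold. Of the 6 Treg list genes, 4 were 2-fold higher in TG over CD4 T cells, but in cluster 9 1 was higher and 2 lower. Cluster shares also moved, with 58 TG and 397 WT cells in cluster 6 and 48 and 65 in cluster 21. The part of either in the ratio was not tested. No Il1rl1 UMI was found in γδ T, CD8αα T or Neu cells of either genotype. In WT γδ T cells this allows up to 5.65 CPM, and in the few TG ones up to 48.2. CD8αβ T cells were at 3.39 CPM in TG and 6.20 in WT, a ratio of −0.87 whose interval (−1.88 to 0.14) covered 0.

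The CD4 T cells with Il1rl1 lay in different clusters in each genotype. In TG, 35 of the 43 positive cells (81.4%) were in cluster 9, 6 in cluster 21 and 2 in cluster 6. In WT, 25 of the 29 (86.2%) were in cluster 21 and 2 each in clusters 9 and 6. Cluster 9 thus held 221 CPM of Il1rl1 in its 132 TG cells and 5.38 in its 272 WT cells, from 105 and 4 UMIs. The log2 ratio was 5.36 (3.96 to 7.26), against 8.12% of all genes past 2-fold. Cluster 21 held 138 CPM in 48 TG cells and 264 in 65 WT cells, a log2 ratio of −0.93 (−1.65 to −0.24) that rests on fewer TG cells than the minimum of 50. Without cluster 21 the ratio over CD4 T cells was 5.61.

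The clusters were first checked for Foxp3, the transcription factor that defines Treg cells. It was at 923 CPM in TG and 953 in WT in cluster 21, and at 2.10 and 36.3 in cluster 9. In WT, CD4 T cells with Il1rl1 held 969 CPM (771–1201) of Foxp3 and those without 79.5 (67.2–93.4). Ikzf2, which encodes the Treg factor Helios, was at 945 and 81.7 CPM, and Ctla4, an inhibitory receptor of Treg cells, at 280 (179–417) and 72.0 (60.3–85.3). In TG the order was the opposite for these genes. TG cells with Il1rl1 held 90.4 CPM (50.6–149) of Foxp3 and those without 245 (209–285), Ikzf2 was at 163 (107–237) and 393 (348–443), and Ctla4 at 30.1 (9.78–70.3) and 138 (112–169). An antibody count taken after the RNA values were seen gave the same orders at the cell surface. In WT, the antibody CD25 signal (the IL-2 receptor α chain of Treg cells) was 4305 per 1000000 antibody UMIs with Il1rl1 and 1390 without, and in TG 1812 and 3218.

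Gata3, the transcription factor of type 2 T cells that is also expressed in tissue Treg cells, was higher beside Il1rl1 in both genotypes. It was at 862 CPM (726–1020) with Il1rl1 and 324 (283–370) without in TG, and at 595 (443–782) and 211 (190–233) in WT. Rora, a transcription factor of type 2 lymphocytes, was at 235 (167–321) and 128 (103–158) CPM in TG and 630 (473–822) and 168 (150–187) in WT. Klrg1, a receptor of differentiated T cells, was at 295 (218–390) and 215 (182–253) in TG and 478 (343–649) and 29.6 (22.3–38.5) in WT. Within cluster 9 of TG alone, the 35 cells with Il1rl1 held 877 CPM of Gata3, 225 of Klrg1 and no Foxp3 UMI, and the other 97 cells 383, 84.8 and 2.92 CPM. The type 2 cytokine genes were scarce. Il4 had 4 UMIs in the TG cells with Il1rl1, and Il13 and Areg had none in cells with Il1rl1 of either genotype, which allows up to 18.1 CPM in TG and 35.0 in WT. Ifng, the type 1 cytokine gene, was at 193 CPM (132–272) with Il1rl1 and 146 (119–178) without in TG, and had no UMI in the 29 WT cells with Il1rl1.

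**Figure D5:**
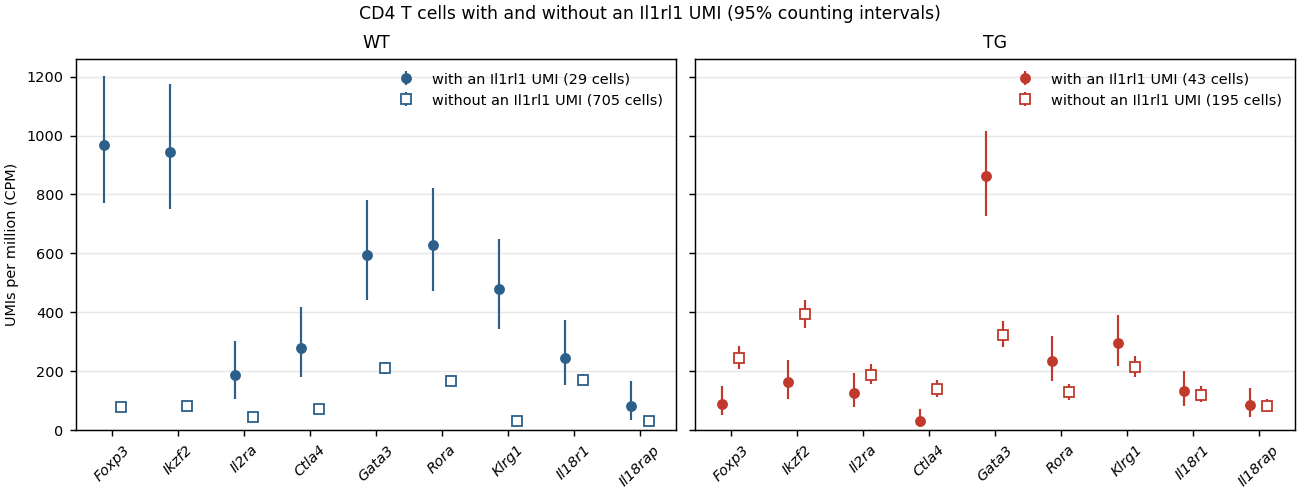
CPM of Treg and type 2 genes and of the IL-18 receptor chains in CD4 T cells with (filled) and without (open) an Il1rl1 UMI, TG and WT in separate panels, with exact 95% Poisson intervals that cover counting error. Foxp3, Ikzf2 and Ctla4 are higher beside Il1rl1 in WT and lower in TG, while Gata3 is higher in both.

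Cluster 9 of CD4 T cells also carried the other chains. Il18rap was at 141 CPM in TG and 60.5 in WT there (1.22, 0.65 to 1.80), and Il18r1 at 181 and 339 (−0.91, −1.28 to −0.55). Markers of γδ T cells moved with these values, since both genes tested of the γδ list were lower in TG (Tcrg.C1 at a log2 ratio of −3.26 and Tcrg.C4 at −2.29) and the list summed to 14.7 CPM in TG and 88.8 in WT. The 1 NK gene tested there was also 2-fold lower, and the NK list summed to 46.3 and 87.4 CPM. Their part in the receptor differences was not tested. In the Foxp3-positive cluster 21, Il18r1 was at 56.4 CPM (28.2–101) in TG and 220 (160–294) in WT. Il18rap had no UMI in the 48 TG cells, which allows up to 15.4 CPM, and 58.7 CPM (30.3–102) in the WT cells. The shared chain Il1rap was found in none of the 43 TG and 29 WT CD4 T cells with Il1rl1, which allows shares of cells with a UMI, not of cells that express it, of up to 8.22% and 11.9%. It was found in only 2.56% and 1.28% of the CD4 T cells without Il1rl1. In basophils with Il1rl1 it was found in 4 of 20 TG and 1 of 7 WT cells, and in those without in 3 of 25 and 1 of 9.

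Among the 3 cell types tested for Il1rl1, the cells named NKT had the largest ratio, with an interval that overlapped that of CD4 T cells. The level was 20.96 CPM (14.8–28.9) in 446 TG cells and 2.88 (1.73–4.49) in 2232 WT cells, from 18 and 10 positive cells. Of these UMIs, 45.9% in TG and 63.2% in WT lay in 3 cells, and 1 WT cell held 10 of the 19. The log2 ratio was 2.86 (2.03 to 3.75), where 6.71% of all tested genes differed by 2-fold, and in cluster 0 alone it was 2.80 (against 6.75%). Some markers moved with it. Over NKT cells Cd4 was at 634 CPM in TG and 162 in WT. Of the 3 genes of the NKT list, Zbtb16, the transcription factor PLZF of NKT cells, was 2-fold lower in TG (43.0 and 107 CPM), while Klrb1c (NK1.1) was at 439 and 784 and Cd3e at 1396 and 1108. The list summed to 1878 CPM in TG and 1999 in WT. Of the 37 TG Il1rl1 UMIs, 36 lay in cells with a Cd4 UMI. The 18 TG cells with Il1rl1 held no Zbtb16 UMI and 36.4 CPM of Klrb1c, against 45.2 and 459 CPM in the TG cells without it. In WT, 4 of the 19 UMIs lay in cells with Cd4. Over the NKT cells with a Cd4 UMI alone the log2 ratio was 3.82. The part of these markers in the result was not tested.

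Il1r1, the signalling receptor of IL-1, was found mainly in γδ T cells. In WT it was at 356 CPM (307–410) in γδ T cells, where 95 of 192 cells (49.5%) had a UMI, and in TG at 289 (171–457), with 8 of 17 cells. These cells held 189 of the 206 WT UMIs of the gene (91.7%) and 18 of the 25 TG UMIs (72.0%). The log2 ratio in γδ T cells was −0.30 (−1.08 to 0.40), an interval that included 0. It rested on 17 TG cells, of which 3 held 61.1% of the UMIs, and without the 3 top cells of each genotype it was −1.12. CD4 T cells had 10 UMIs in 8 WT cells, at 5.14 CPM, and none in 238 TG cells, which allows up to 3.55 CPM.

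The genes of IL-17-producing cells were found on both sides of the Il1r1 split in WT γδ T cells. Il17a was at 412 CPM (341–493) in cells with Il1r1 and at 215 (160–281) in those without. Il23r, the receptor chain for IL-23, was at 86.5 (56.0–128) and 82.5 (50.4–127). The intervals of Il23r overlapped, as did those of Il18r1 at 634 (545–732) and 702 (600–815). The median depth was 2576 UMIs in the WT cells with Il1r1 and 2201 in those without. In TG no γδ T cell had an Il17a UMI. Il1rap was found in 4 of the 95 WT cells with Il1r1 (4.21%) and in 1.03% of those without.

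Il1r2, the decoy receptor, was the gene of cluster 5 and the cells named Neu. Cluster 5 held 1078 CPM (997–1165) in 204 TG cells and 1594 (1487–1706) in 258 WT cells. UMIs were found in 84.3% and 84.5% of the cells. The level was lower in TG, at a log2 ratio of −0.56 (−0.71 to −0.41), short of 2-fold. S100a8 moved the other way, at the values given above. The cells named Neu held 383 CPM (320–455) in TG and 446 (320–605) in WT, below cluster 5 in both genotypes. The cells named Macro held 19.6 and 32.2 CPM, and basophils none, which allows up to 19.1 CPM in TG and 69.3 in WT.

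Lymphocytes held Il1r2 at 1.63 to 18.7 CPM. Differences of 2-fold or more there rested on few UMIs. In CD8αβ T cells the ratio was 1.28 (−0.17 to 3.04) from 21 TG and 5 WT UMIs, and in immature B cells −1.05 (−2.27 to 0.09) from 11 and 19 UMIs, against 6.04% of genes past 2-fold in immature B cells. The immature B ratio turned to 1.39 without mixed-lineage cells. Neutrophil RNA was also seen in lymphocytes, where S100a8 stood at 80.4 to 175 CPM in TG and 25.5 to 56.0 in WT, and its part in these low Il1r2 counts was not tested.

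Il1rap was sparse in all cell types. Its highest level among types with 50 cells was in cluster 5, at 81.9 CPM (60.6–108) in TG and 138 (108–173) in WT, a log2 ratio of −0.75 (−1.30 to −0.21) where 10.6% of genes differed by 2-fold. Of the cluster 5 cells with Il1r2, 31 of 172 in TG (18.0%) and 49 of 218 in WT (22.5%) also had Il1rap. Among those without Il1r2 the shares were 15.6% and 25.0%. Basophils held 50.9 CPM from 8 TG UMIs and 46.2 from 2 WT UMIs.

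The other listed genes of the pathway were counted in the same 9 cell types, where 4.06% of all pairs were 2-fold higher and 3.46% lower. For comparison, the median log2 ratio of all tested genes lay between −0.08 and 0.08 in these types. Of the adaptors and kinases, all 10 listed genes were measured, Myd88, the Irak genes and Traf6 among them, and none of 85 tested pairs with a cell type reached 2-fold (median log2 ratio −0.097). Within clusters some did. In TG 1 gene was higher in clusters 12 and 13, 1 lower in clusters 4 and 8, and 1 each way in cluster 6. Over all genes in the 14 clusters, 8.26% of pairs were past 2-fold. In the feedback list 3 of 3 genes were measured, and 4 of 27 pairs were 2-fold lower in TG (median −0.59). All 4 were Tnfaip3, which encodes the NF-κB inhibitor A20. Tnfaip3 was at 213 CPM in TG and 536 in WT in CD8αβ T cells (log2 ratio −1.33), at 297 and 604 in NKT cells (−1.02), and its ratios in immature and mature B cells were −1.15 and −1.12. In the main mature B cluster 1 and in CD8αβ clusters 4 and 12, 0 of 3 feedback genes were 2-fold lower. In CD8αβ clusters 7 and 13, NKT cluster 0 and immature B cluster 10 it was 1 of 3. The part of cluster shares was not tested. Of 9 listed ligands, Il18, Il1a and Il1b were measured, and 1 of 12 pairs reached 2-fold, Il1b in immature B cells at 14.7 and 34.4 CPM (−1.22), with a median of 0.093 over the pairs. Within clusters, 1 ligand gene was higher in TG in CD8αβ clusters 7 (1.14) and 13 (1.58). In Macro cluster 15 (−1.30) and immature B cluster 10, 1 was lower. Il33 was not among the genes of the table. Il1b in cluster 5 stood at 8474 CPM in TG and 9615 in WT.

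Of the other receptors and inhibitors, 4 of 6 were measured, and 16 pairs gave 1 higher and 1 lower (median −0.040). Il18bp, the soluble inhibitor of IL-18, was higher in TG in cluster 5, at 68.5 against 11.5 CPM (2.58), and Il1rl2 lower in CD4 T cells, at 4.73 against 10.8 CPM (−1.19). The type 1 list, which holds the IL-12 partners of IL-18, had all 5 genes measured, with 7 of 39 pairs higher and 2 lower in TG (median 0.097). In CD4 T cells Ifng was at 155 CPM in TG and 71.9 in WT (1.11), the transcription factor Tbx21 at 88.8 and 34.4 (1.37), and the IL-12 receptor chain Il12rb2 at 29.6 and 5.14 (2.53). Cluster shares moved with these values, since cluster 6 held 58 of 238 TG but 397 of 734 WT CD4 T cells. In CD4 cluster 9 alone Ifng was at 238 and 170 CPM (0.49) and Tbx21 at 130 and 72.7 (0.84), and 1 of 5 genes of the list, Il12rb2, was 2-fold higher, against 4 of 5 over the type. In CD8αβ T cells Tbx21 was at 209 and 60.7 (1.78) and Il12rb2 at 44.9 and 13.1 (1.78). There, too, the cluster shares given above moved with the values. Within CD8αβ clusters, 2 of 4 tested genes of the list were 2-fold higher in cluster 12, 2 of 5 in cluster 7, 2 of 3 in cluster 4 and 0 of 3 in cluster 13, and Tbx21 had ratios of 1.28, 1.68, 1.70 and 0.94. The Treg list (6 genes measured) had 9 of 35 pairs higher and 6 lower, the type 2 list (7 measured) 8 of 29 higher and 8 lower, the type 17 list (9 measured) 3 of 21 higher and 7 lower, and the γδ T cell list (5 measured) 3 of 31 higher and 8 lower. Their medians were −0.088, −0.080, −0.59 and −0.39. Over all genes in the same types, 4.06% of pairs were 2-fold higher and 3.46% lower.

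Likeness was measured as Pearson's correlation of log2(CPM + 1) over the 21 profiles of genotype and cell type with at least 50 cells, among 9686 genes. Basophils of both genotypes and TG γδ T cells were among the profiles left out for too few cells. The profiles share libraries and depth, and the values describe a pattern only. For Il18r1 the closest genes were Atp10a (0.86), Tnfrsf25 (0.84) and Icos (0.84), for Il18rap Rab27a (0.89), Cdc42ep3 (0.89) and Ppp1r18 (0.88), and for Il1rl1 Foxp3 (0.78), Izumo1r (0.75) and Fbxo33 (0.75). Within TG CD4 T cells, by contrast, Foxp3 was lower beside Il1rl1, as given above. Il1r1 was closest to Il17a (0.90), Sox13 (0.85) and Cry1 (0.82), Il1r2 to C5ar1 (0.97) and Csf3r (0.97), and Il1rap to Srgn (0.93) and Preb (0.89). The Il1r1 values rest mainly on WT γδ T cells, the only γδ profile kept, which held 189 of the 206 WT UMIs of the gene. Among the receptors themselves the value was 0.64 for Il18r1 with Il18rap and 0.73 for Il1r2 with Il1rap.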

How the data were processed

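CD45+ liver cells were captured with the BD Rhapsody system, with oligo-tagged antibodies and sample tags. Per the labels and the study, the authors aligned the reads to mouse build mm 10 with STAR in the BD WTA Multiplex Rhapsody Analysis Pipeline 1.9 and deposited UMI counts per cell, a filtered count table of 13528 genes and tables of cell type names and clusters made after integration of both libraries. Here, the counts of each genotype and cell type (or cluster) were summed and divided by the sum of all genes (CPM). Intervals were exact Poisson for CPM, Clopper-Pearson for shares and conditional binomial for TG/WT ratios. With 1 library a genotype no test was run. A gene was counted as different at 2-fold, with at least 20 UMIs over both profiles and 50 cells in each. For levels, a UMI count of 0 was taken to allow up to 3 counts, which is below the upper end of the exact Poisson interval. For shares of 0 the Clopper-Pearson limit was used.

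No doublet caller was run. Cells with at least 2 UMIs of the marker lists of 2 lineages were kept and left out in an alternative. The named genes were the 6 receptors, the pathway, type 1, Treg, type 2, type 17 and γδ T cell lists, and for each receptor the genes most like it in pattern among those with at least 200 UMIs. The members and lists were chosen with earlier results of these data known. Alternatives changed the count source, library size, weighting, depth (thinning to 1000 UMIs), cells, clusters and scaling (TMM). The deposited antibody counts were used for CD25 alone, and cells with no genotype name were in no comparison. The ratio code was tested on simulated data. Python 3.11.15, numpy 2.4.6, scipy 1.17.1, pandas 2.3.3, matplotlib 3.10.9, R 4.3.3 and edgeR 4.0.16 were used. Gene positions were from GENCODE vM21 on GRCm38, and promoter sequences from RefSeq. A listed gene is not reported here by name.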

Additional observations from a re-analysis of the deposited data

Results flagged for a closer look

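The TG/WT difference of Il18r1 went in opposite directions in different clusters. It was higher in TG in cluster 4 of CD8αβ T cells, at a log2 ratio of 0.70, and lowest among the clusters tested in the CD8αα T cell cluster 2, at −2.36. Over the 13 clusters tested the interval lay above 0 in 2 and below 0 in 7. Il1rl1 was higher in TG in cluster 9 of CD4 T cells, at 5.36, and lower in cluster 7 of CD8αβ T cells, at −1.73 (5.79 CPM in TG and 19.2 in WT). The WT value rested on 18 UMIs in 4 of 132 cells, of which 94.4% lay in 3 cells. Of the 3 clusters tested for Il1rl1, 2 were above 0 and 1 below. No share of all genes with such intervals was counted. The intervals cover counting error in 1 library of each genotype, and the differences between clusters were not tested.

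Cells without a genotype name, which no comparison used, also held the receptors. In the second pool, Il18r1 was at 107 CPM over 16829 such cells, against 93.3 in the named WT cells, and Il1r2 at 56.7 CPM against 46.0. In the first pool, Il18rap was at 63.6 CPM over 5379 such cells. This was above the 53.2 in the WT cells of the other pool and below the 95.6 in the named TG cells of the same pool. Il1r1 was at 8.87 CPM in the unnamed cells of the first pool, against 1.35 in the named TG cells, and at 1.81 in those of the second pool, against 9.26 in the named WT cells. Il1rl1 was at 4.52 CPM in the unnamed cells of the first pool, against 12.9 in the named TG cells, and at 4.55 in those of the second, against 6.21. For Il1rap these values were 7.28 against 8.15 in the first pool and 9.11 against 8.28 in the second. The remaining values were Il18r1 in the first pool, at 91.4 CPM against 55.0, Il1r2 there, at 41.6 against 48.0, and Il18rap in the second pool, at 52.6 against 53.2. The make-up of these cells by type and genotype is unknown.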

How the results depend on the processing

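For the main levels, shares, ratios and counts, 114 alternative values were within the counting interval (within 1.5 times for counts), 46 moved beyond it and 2 changed sign. For the other pairs past 2-fold, 67 were within it, 12 moved and 2 changed sign. The number of pairs past 2-fold, 9 in the report, was 5 of 14 tested after thinning to 1000 UMIs and 5 of 23 in the largest cluster of each type alone. Thinning to 1000 UMIs, which lowers depth by construction, brought the share of positive cells for Il18r1 to 10.9% in TG CD4 T and 53.1% in WT γδ T cells, for Il18rap to 20.6% (TG) and 18.5% (WT) in NK cells, for Il1rl1 to 12.2% and 2.04% in CD4 T cells, for Il1r1 to 27.1% in WT γδ T cells and 0 in TG Neu, for Il1r2 to 62.3% and 68.6% and for Il1rap to 9.80% and 15.5% in cluster 5. It gave levels of 151 CPM for Il18r1 in TG CD4 T cells, 776 in WT γδ T cells, 1196 and 1740 for Il1r2 and 113 and 178 for Il1rap in cluster 5, and a ratio of −0.038 for Il18r1 in CD8αβ T cells. The shares of Il18r1-positive cluster 8 cells with Il18rap became 40.6% in TG and 38.8% in WT, an alternative chosen after seeing the data.

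Without ribosomal protein and mitochondrial genes in the library size, levels were 157 CPM for Il18r1 in TG CD4 T and 848 in WT γδ T cells, 294 and 242 for Il18rap in NK cells, 205 and 42.1 for Il1rl1 in CD4 T cells and 454 for Il1r1 in WT γδ T cells. In the largest cluster alone they were 40.1 for Il18r1 in TG CD4 T cells, 67.2 and 80.4 for Il18rap in NK cells and 22.9 and 2.00 for Il1rl1 in CD4 T cells. There the Il18r1 ratio in CD8αβ T cells (cluster 4) turned to 0.70, the Il18rap ratio in cells named NK (cluster 3) to −0.26, and the Il1rl1 ratio in CD4 T cells (cluster 6) was 3.52. The last rests on 2 positive cells in each genotype. Without mixed-lineage cells Il18r1 was at 150 CPM in TG CD4 T cells and Il1r2 at 1832 in WT cluster 5, and with equal weight per cell Il1r2 was at 1787 there and the Il18r1 ratio in CD8αβ T cells −0.042. Without the 3 top cells Il1rl1 was at 122 and 20.7 CPM in CD4 T cells and the Il1r1 ratio in γδ T cells −1.12. The single Il1r1 UMI of TG Neu was lost, giving 0, after thinning, without mixed-lineage cells and without the top cells. The Il1r2 ratio in immature B cells (−1.05) turned to 1.39 without mixed-lineage cells and 1.15 without the top cells. The cause was not tested in any of these.

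No paired analysis was possible because each genotype had 1 library. The TG γδ T cells and the basophils of both genotypes have too few cells for a count of calls.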
